A study of Mus musculus with 12 samples.

Results

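The expression of 33 genes of cholesterol and fatty acid synthesis was examined in plasmablasts (PBs) lacking the transcription factors Xbp1 or Mist1 and in splenic plasma cells (PCs) lacking Mist1. The genes were taken by name from a list of 35 genes that comprised 18 enzymes of the sterol pathway, 6 regulators and carriers and 11 enzymes of fatty acid synthesis, elongation and desaturation. Of these genes, 33 were found in all 10 RNA-seq libraries, among 24189 genes listed for the PBs and 24732 genes listed for the PCs. *Hmgcs1* and *Msmo1* were not analysed here, so that the sterol arm held 16 enzymes. All 33 genes passed the filter on low values in every comparison.

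The sterol arm builds cholesterol from acetyl-CoA by way of mevalonate, farnesyl diphosphate, squalene and lanosterol. The fatty acid arm makes malonyl-CoA from cytosolic acetyl-CoA, builds palmitate from it and then elongates and desaturates the chain. Both arms are driven by the SREBP transcription factors (encoded by *Srebf1* and *Srebf2*), which the escort protein Scap carries from the endoplasmic reticulum (ER) to the Golgi and which the Insig proteins retain in the ER when sterols are plentiful. PCs are known for a greatly enlarged ER, the membrane in which the late steps of sterol synthesis and desaturation take place. Xbp1 is a transcription factor of the unfolded protein response, and Mist1 (encoded by *Bhlha15*) is a basic helix-loop-helix factor of secretory cells.

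The PBs were generated from C57BL/6 spleen B cells in the iGB system, in which B cells grow on 40LB feeder fibroblasts that present CD40 ligand and BAFF, first with IL-4 and then with IL-21, and were sorted on day 8 as CD138+CD23- cells. Their genotypes were *Xbp1* fl/fl (hereafter control PBs), *Cd23*-Cre *Xbp1* fl/fl (Xbp1-deficient) and *Bhlha15* CreER/CreER, with CreER inserted in both *Bhlha15* alleles (Mist1-deficient). The PCs were TACI+CD138+ spleen cells of C57BL/6 mice on day 7 after immunization with NP-KLH. They were either *Cd23*-Cre *Bhlha15* fl/fl (Mist1-deficient) or controls, which are labelled wildtype and are *Bhlha15* fl/fl in the methods of the study, a floxed allele that also carries a biotin acceptor tag. *Cd23*-Cre deletes in B cells before they become PBs or PCs, whereas the CreER alleles lack *Bhlha15* in every cell. Each of the 5 groups had 2 libraries, and the only control genotype in culture was *Xbp1* fl/fl. The study describes the libraries of a genotype as independent RNA-seq experiments. Which mice or cultures each came from is not given in the sources used here, and p-values measure the spread between these libraries, part of which may be technical. Mist1-bound regions came from Bio-ChIP-seq of *Bhlha15* fl/fl *R26* BirA/BirA PBs after 4 days of LPS stimulation, in 2 experiments.

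Expression is given as TPM, an abundance of transcripts per length that sums to the same total in every library, so that the sequencing depth is unknown. The labels were checked with the targeted genes. *Bhlha15* was at 176 and 159 TPM in control PBs, 3.57 and 2.60 TPM in Xbp1-deficient PBs, 0.210 and 0.551 TPM in *Bhlha15* CreER/CreER PBs, 258 and 242 TPM in control PCs and 14.4 and 16.6 TPM in Mist1-deficient PCs. The Xbp1-deficient PBs thus also had little *Bhlha15* mRNA. *Xbp1* was at 3168 and 3043 TPM in control PBs and 1981 and 2024 TPM in Xbp1-deficient PBs. These values are of the whole gene, and the source of the remaining *Xbp1* mRNA was not tested.

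Summed over the 16 enzymes, the sterol arm amounted to 1034 ± 3.99 TPM (SD, n = 2) in control PBs, 621 ± 30.8 TPM in Xbp1-deficient PBs, 1025 ± 20.7 TPM in *Bhlha15* CreER/CreER PBs, 606 ± 9.16 TPM in control PCs and 599 ± 22.8 TPM in Mist1-deficient PCs. In the same order, the 6 regulators and carriers summed to 763 ± 4.17, 319.9 ± 21.8, 666 ± 42.0, 540.1 ± 18.0 and 388 ± 20.6 TPM. The 11 fatty acid genes summed to 1004 ± 1.73, 768 ± 41.5, 939.9 ± 80.1, 566 ± 10.1 and 542 ± 18.8 TPM. As a share of control PBs, the sterol, regulator and fatty acid sums were thus 60%, 41.9% and 76.5% in Xbp1-deficient PBs and 99.1%, 87.3% and 93.6% in *Bhlha15* CreER/CreER PBs. As a share of control PCs, they were 99.0%, 71.8% and 95.8% in Mist1-deficient PCs. No test was made on these sums.

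**Figure D1:**
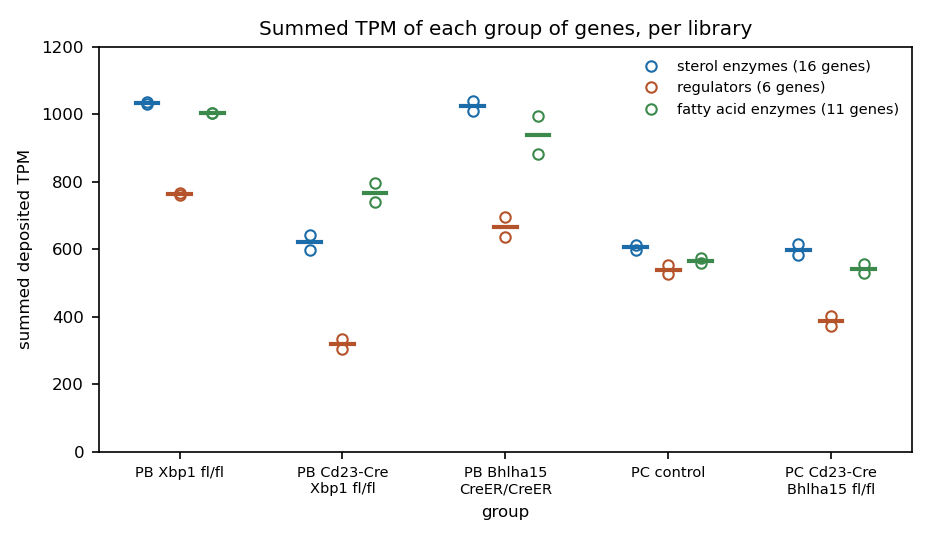
Summed deposited TPM (y axis) of the 16 sterol enzymes, the 6 regulators and carriers and the 11 fatty acid enzymes in the 5 groups (x axis), with a symbol for each library and a mark at the mean of 2 libraries. The regulator sum is lowest in Xbp1-deficient PBs, at 335 and 304 TPM, and both PC groups lie below control PBs in every arm.

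Within the sterol arm, the most abundant transcripts of control PBs were *Cyp51* (mean of 163 TPM), *Sqle* (138 TPM), *Fdps* (137 TPM) and *Ebp* (135 TPM), and *Idi1* was the lowest at 2.79 ± 0.635 TPM (SD, n = 2). In control PCs *Ebp* led with 155 TPM, while *Cyp51* was at 45.3 TPM and *Sqle* at 37.2 TPM. Of the fatty acid arm, *Scd2* was the most abundant (301 TPM in control PBs and 138 TPM in control PCs) and *Acaca* the lowest (6.01 and 2.62 TPM). *Srebf2* led the regulators (334 and 174 TPM), and their lowest member was *Scap* in control PBs (27.1 TPM) and *Stard4* in control PCs (13.7 TPM). Transcript stretches of at least 200 bases with at least 95% identity elsewhere in the genome were found for 9 of the 33 genes and covered 96.4% of the *Fdps*, 86.6% of the *Idi1*, 85.0% of the *Acaca*, 76.7% of the *Insig1*, 56.3% of the *Fdft1* and 37.6% of the *Elovl6* transcript. How reads with several matches were counted is not given in the sources used here, so that the levels of these genes are uncertain.

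**Figure D2:**
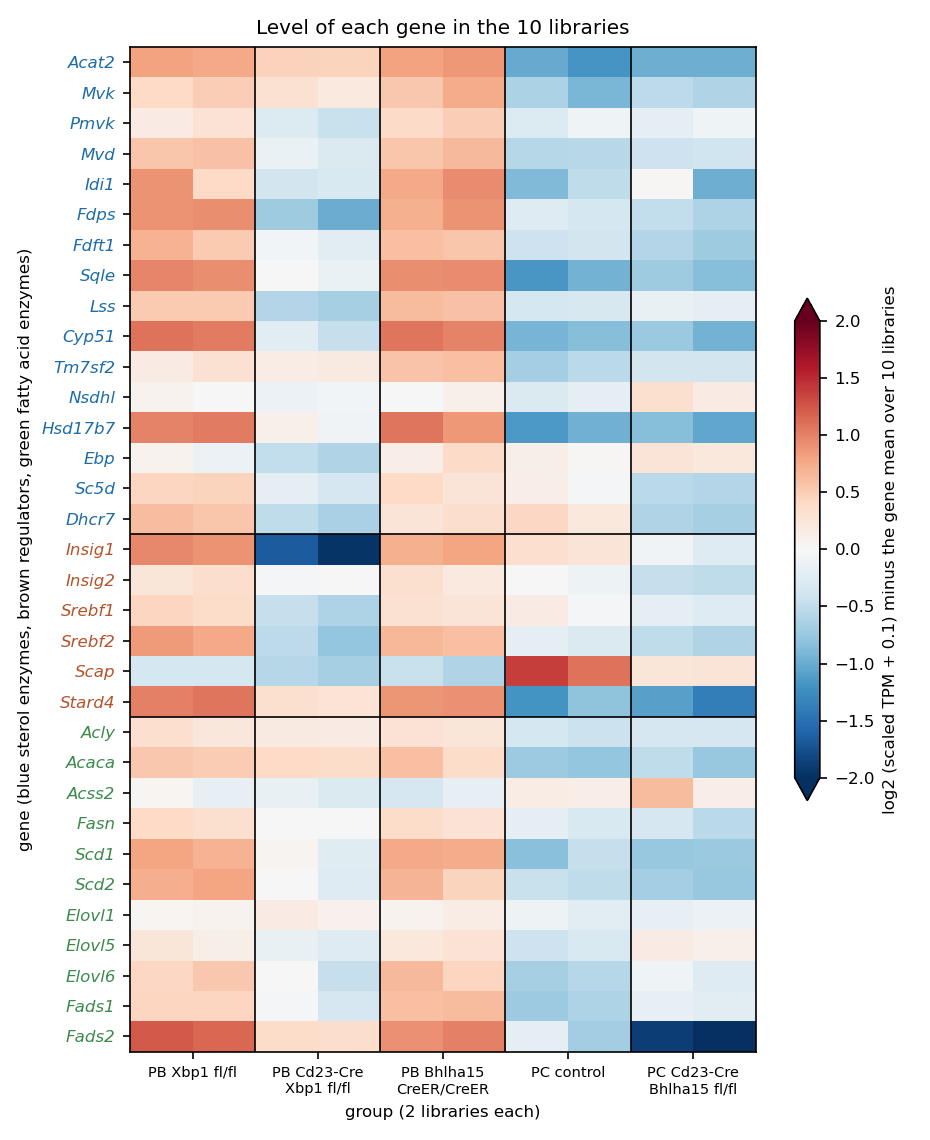
Level of the 33 genes (rows, grouped by arm) in the 10 libraries (columns, 2 for each group), as log2 of scaled TPM plus 0.1 minus the mean of the gene over all libraries, with red above and blue below that mean. *Insig1* is lowest in the Xbp1-deficient PBs, *Fads2* is lowest in the Mist1-deficient PCs, and *Scap* is highest in the control PCs.

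The start of the genes that lead the changes described next, except *Fdps*, which had no promoter entry, is shown by their promoters. These run from 250 bases before to 50 bases after the transcription start site (TSS), as RefSeq lists them for GRCm38.p6. Each was also found letter by letter in mm9, the genome of the study, whose coordinates are given. Capitals mark CCAAT or its reverse complement ATTGG, the core of the element bound by NF-Y, a factor that often binds beside SREBP. The promoters of *Insig1* (chr5:28397702-28398001, plus strand), *Srebf2* (chr15:81977449-81977748, plus strand), *Cyp51* (chr5:4104648-4104947, minus strand) and *Lss* (chr10:75994100-75994399, plus strand) each held CCAAT once, at -216, -135, -29 and -62 from the TSS. The promoter of *Fads2* (chr19:10175944-10176243, minus strand), the gene with the largest change in PCs, did not hold it.
Insig1: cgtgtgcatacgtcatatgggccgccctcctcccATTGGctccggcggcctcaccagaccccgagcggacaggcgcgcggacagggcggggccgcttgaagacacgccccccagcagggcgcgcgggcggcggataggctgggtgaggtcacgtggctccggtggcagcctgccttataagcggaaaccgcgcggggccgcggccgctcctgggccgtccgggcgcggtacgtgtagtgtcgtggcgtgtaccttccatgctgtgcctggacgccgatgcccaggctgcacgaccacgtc
Srebf2: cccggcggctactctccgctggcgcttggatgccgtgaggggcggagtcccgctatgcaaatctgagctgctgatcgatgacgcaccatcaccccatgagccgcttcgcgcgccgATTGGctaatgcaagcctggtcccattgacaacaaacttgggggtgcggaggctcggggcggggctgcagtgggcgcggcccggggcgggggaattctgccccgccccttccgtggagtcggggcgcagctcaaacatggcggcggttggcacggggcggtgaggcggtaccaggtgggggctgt
Cyp51: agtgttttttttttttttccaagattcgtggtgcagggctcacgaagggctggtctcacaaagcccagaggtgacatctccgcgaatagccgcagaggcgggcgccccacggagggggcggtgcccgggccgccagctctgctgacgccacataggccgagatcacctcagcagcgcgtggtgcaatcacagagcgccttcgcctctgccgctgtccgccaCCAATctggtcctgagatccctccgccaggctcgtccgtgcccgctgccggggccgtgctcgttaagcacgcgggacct
Lss: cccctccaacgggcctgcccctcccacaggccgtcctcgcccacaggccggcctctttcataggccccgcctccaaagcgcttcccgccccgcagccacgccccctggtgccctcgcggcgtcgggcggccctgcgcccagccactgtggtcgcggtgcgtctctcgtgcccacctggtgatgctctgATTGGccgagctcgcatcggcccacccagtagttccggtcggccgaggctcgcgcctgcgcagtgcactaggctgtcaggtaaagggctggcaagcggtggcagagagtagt
Fads2: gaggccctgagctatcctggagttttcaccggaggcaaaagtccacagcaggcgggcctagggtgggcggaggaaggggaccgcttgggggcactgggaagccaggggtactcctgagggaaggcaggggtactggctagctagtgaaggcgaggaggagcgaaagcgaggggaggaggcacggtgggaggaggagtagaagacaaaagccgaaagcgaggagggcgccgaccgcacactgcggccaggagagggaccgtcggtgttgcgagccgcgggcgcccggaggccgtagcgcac

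Of the 33 genes, 26 had a promoter entry, and 21 of these (80.8%) held CCAAT in at least 1 of their promoters, compared with 41.1% of all 27025 genes listed. It was present in 12 of 13 sterol enzymes, 4 of 5 regulators and carriers and 5 of 8 fatty acid enzymes. The sterol regulatory element in the form TCACNCCAC was found at none of the 26 genes and at 1.44% of all genes. TGACGTG, a core bound by factors of the unfolded protein response, was likewise at none of the 26 genes and at 2.22% of all genes. Only these exact letters were searched, so that variants of either element, or sites outside the windows, would not be seen. CACGTG, a form of the E-box, was present at 6 of the 26 genes (*Hsd17b7*, *Sc5d*, *Dhcr7*, *Insig1*, *Scap* and *Elovl5*), or 23.1%, compared with 8.09% of all genes. CAGCTG, a form of the E-box known for Mist1, was present at 3 (*Idi1*, *Dhcr7* and *Insig2*), or 11.5%, compared with 18.3%. Further forms of the E-box were not searched. All motifs were searched on both strands in windows of the same length, and a match is a run of letters that need not be bound. The 27025 genes were not limited to expressed ones, whereas all 33 genes passed the filter on low values. No share among expressed genes was computed, so that these contrasts may be shared by expressed genes at large.

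Loss of Xbp1 in PBs was examined first. Of the 33 genes, 26 were expressed at a lower level in Xbp1-deficient than in control PBs and none at a higher level, at an adjusted p under 0.05 of limma over all 12125 genes tested. Among all genes tested, 18.0% were lower and 10.3% were higher. After scaling, the libraries of both groups did not overlap for 32 of the 33 genes and for 8426 of all 12125 genes tested. The lower genes comprised 13 of the 16 sterol enzymes, all 6 regulators and carriers and 7 of the 11 fatty acid enzymes. The median log2 fold change (log2FC) was -0.77 over the 33 genes, compared with 0.00 over all genes tested, and was -0.82 for the sterol enzymes, -0.90 for the regulators and carriers and -0.44 for the fatty acid enzymes. By the stricter rule of the study, with a fold above 3 and a level above 5 TPM, *Insig1* and *Fdps* were lower, along with 1.63% of all genes. In sorted bulk samples, fewer cells of a type and less RNA per cell cannot be told apart.

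The regulators held the largest change. *Insig1*, which retains the SREBP-Scap complex in the ER and is itself an SREBP target, was at 222 and 219 TPM in control PBs and 39.5 and 32.8 TPM in Xbp1-deficient PBs. Both groups were far apart (log2FC -2.82, SE 0.10, adjusted p = 8.91e-07). *Srebf2*, which codes for the SREBP that mainly drives sterol synthesis, fell from 341 and 328 TPM to 145 and 125 TPM (log2FC -1.52, SE 0.09, adjusted p = 1.01e-05). *Srebf1*, which codes for the SREBP forms that mainly drive fatty acid synthesis, fell from 81.8 and 81.4 TPM to 49.4 and 45.0 TPM (log2FC -1.0, SE 0.08, adjusted p = 4.37e-05). For both genes, each Xbp1-deficient library lay below each control library. The gene of the carrier *Stard4*, which moves cholesterol between membranes, was lower by the same test (50 and 53.7 compared with 34.3 and 33.8 TPM, log2FC -0.81). *Insig2* and *Scap* differed little (log2FC -0.38, SE 0.08, adjusted p = 0.00711 and log2FC -0.34, SE 0.09, adjusted p = 0.0201). *Insig2* lost its call with TPM as deposited and without the second control library (adjusted p up to 0.203), and *Scap* lost it with TPM as deposited and without any 1 of the 4 libraries compared (adjusted p up to 0.367).

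Of the 16 sterol enzymes, 13 fell, from *Acat2* at the start of the pathway to *Dhcr7* at its end, and 3 did not pass the test. *Fdps*, which makes farnesyl diphosphate, was at 134 and 141 TPM in control PBs and 48.9 and 40.8 TPM in Xbp1-deficient PBs (log2FC -1.83, SE 0.11, adjusted p = 8.39e-06). *Cyp51*, the gene of lanosterol demethylase, fell from 163 and 163 TPM to 72.7 and 62.9 TPM (log2FC -1.48, SE 0.09, adjusted p = 8.2e-06). *Dhcr7*, for the last reductase of one branch to cholesterol, fell from 57.6 and 57.1 TPM to 29.4 and 27.2 TPM (log2FC -1.22, SE 0.09, adjusted p = 2.31e-05). No library of one genotype reached into the range of the other for these genes. *Lss*, for the enzyme that closes the rings to lanosterol, fell from 48.2 and 49.6 TPM to 24.9 and 23.9 TPM (log2FC -1.21, SE 0.07, adjusted p = 1.02e-05). *Sqle*, for squalene epoxidase, fell from 138 and 138 TPM to 78.7 and 72.4 TPM (log2FC -1.08, SE 0.08, adjusted p = 2.37e-05). *Hsd17b7*, for a ketoreductase of the pathway, fell from 14.5 and 15.5 TPM to 8.66 and 7.85 TPM (log2FC -1.06, SE 0.11, adjusted p = 0.000223). The groups were apart for these genes as well.

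*Idi1*, for the isomerase that acts before Fdps, was at 3.24 and 2.34 TPM in control PBs and 1.44 and 1.54 TPM in Xbp1-deficient PBs. Its log2FC of -1.04 carried the widest error of the arm (SE 0.26, adjusted p = 0.0187), and the call was lost without the first control library or either Xbp1-deficient library (adjusted p up to 0.161). The other 6 lower enzymes, *Mvd*, *Fdft1*, *Sc5d*, *Pmvk*, *Ebp* and *Acat2*, had log2FC between -0.84 and -0.38. *Mvk*, *Nsdhl* and *Tm7sf2* did not pass the test, with log2FC of -0.26 (95% interval -0.49 to -0.02), -0.18 (-0.37 to 0.02) and -0.13 (-0.35 to 0.08). A decline of the size of that of *Lss* lay outside these intervals. *Sc4mol*, an older name of *Msmo1* that is kept out of the counts, fell from 163 and 168 TPM to 79.0 and 67.1 TPM (log2FC -1.39).

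The fatty acid arm changed less. *Scd2* and *Scd1*, for stearoyl-CoA desaturases, fell from 291 and 312 TPM to 196 and 167 TPM (log2FC -0.94, SE 0.10, adjusted p = 0.000273) and from 169 and 164 TPM to 113 and 93.8 TPM (log2FC -0.90, SE 0.10, adjusted p = 0.000292). The groups did not overlap for either gene. *Fads2*, for the delta-6 desaturase of polyunsaturated fatty acids, fell from 87.8 and 85.7 TPM to 53.5 and 54.1 TPM (log2FC -0.90). *Elovl6*, *Fads1*, *Elovl5* and the fatty acid synthase gene *Fasn* were lower with log2FC between -0.76 and -0.42. The genes of the enzymes that supply acetyl-CoA and malonyl-CoA did not pass the test. *Acly* was at 178 and 169 TPM compared with 177 and 178 TPM, and the log2FC was -0.17 for *Acly*, -0.22 for *Acss2* and -0.20 for *Acaca*. *Elovl1* (0.01) did not pass either.

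**Figure D3:**
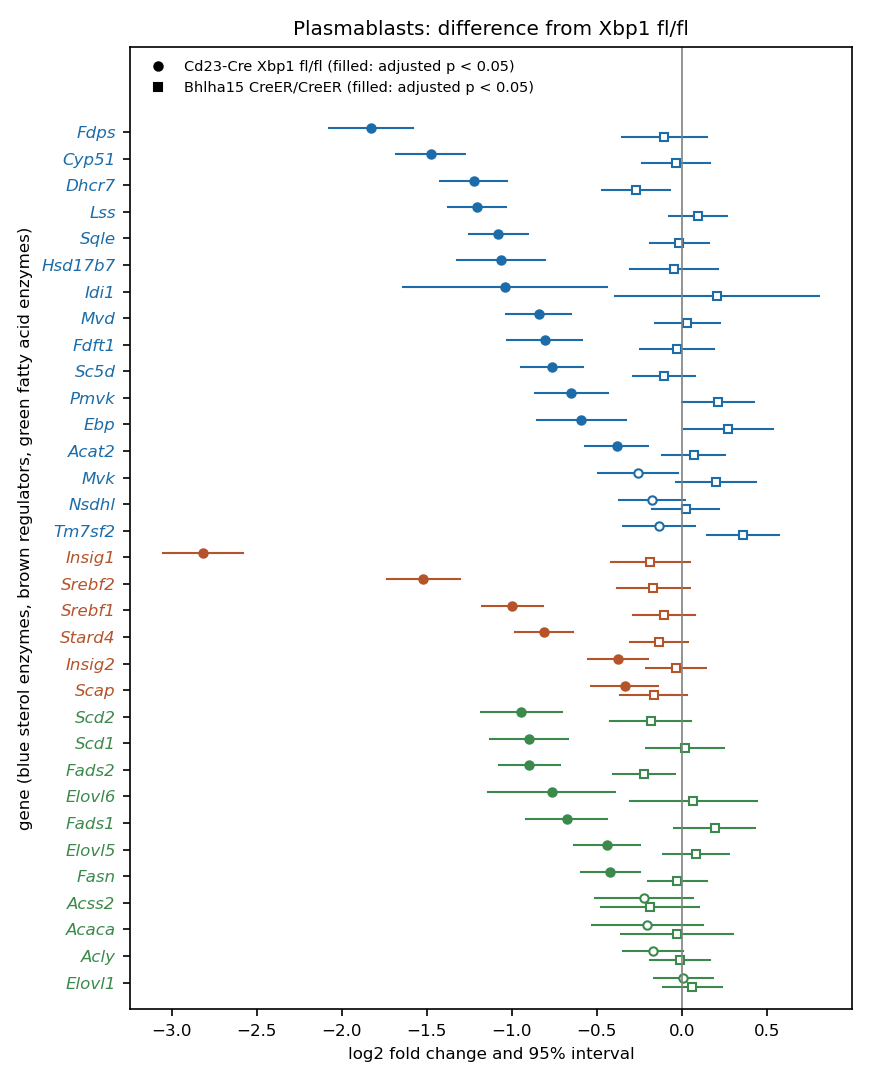
Log2 fold change (x axis, with the 95% interval as a line) of the 33 genes (y axis, grouped by arm) in Xbp1-deficient PBs and *Bhlha15* CreER/CreER PBs, each against the same control PBs, with filled symbols at an adjusted p under 0.05. For Xbp1-deficient PBs 26 symbols are filled, all left of zero, and for *Bhlha15* CreER/CreER PBs none is filled.

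The scaling of the libraries bears on these counts. The values above rest on scaling by the median of ratios. With TPM as deposited, the median log2FC was 0.21 over all genes and -0.56 over the 33 genes, and 32 of the 33 genes lay below the median of all genes under either scaling. With TPM as deposited, 21 of the 33 genes were lower and 1, *Elovl1*, was higher (log2FC 0.22, adjusted p = 0.0286). Among all genes called, the share of lower genes was 63.6% with the median of ratios, 28.4% with TPM as deposited and 43.9% after quantile normalization, under which 26 of the 33 genes were again lower. Without the first control library 20 of the genes were called, since *Acat2*, *Ebp*, *Elovl5* and *Fasn* were lost besides *Idi1* and *Scap*, and *Elovl6* was lost without the second. Whichever library was left out, 18 genes were called, among them *Insig1*, *Fdps*, *Srebf2*, *Cyp51*, *Dhcr7* and *Lss*.

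Markers of other cell types differed between these PBs. The 10 fibroblast genes, which mark the feeder cells, summed to 1199 and 1432 TPM in control PBs, 1892 and 1742 TPM in Xbp1-deficient PBs and 1582 and 955 TPM in *Bhlha15* CreER/CreER PBs, with *Postn* and *Pdgfrb* at or near 0 throughout. The 8 neutrophil genes summed to 11.6 and 10.3, 134 and 133 and 9.36 and 3.90 TPM in the same order, while *Elane* was at 0 in all control and Xbp1-deficient libraries. The 8 macrophage genes (*Emr1* was also listed as *Adgre1*, a name not found) summed to 135 and 137 TPM in control and 32.8 and 35.3 TPM in Xbp1-deficient PBs. Of these sums *Cd68* made 128 and 131 compared with 16.9 and 18.7 TPM. *Lyz2* went the other way, at 5.86 and 5.22 compared with 15.1 and 15.8 TPM. The other macrophage genes were below 1 TPM in all PBs, with *C1qa* at 0. The 8 T cell genes summed to 8.43 to 13.5 TPM in the PB libraries, and *Cd8a* was at 0. The 8 plasma cell and plasmablast genes (*Igj* was also listed as *Jchain*, a name not found) summed to 41765 and 41761 TPM in control and 21660.0 and 21029 TPM in Xbp1-deficient PBs. Of these, *Mzb1* (log2FC -2.28), *Tnfrsf17* (-0.97), *Igj* (-0.86) and *Xbp1* itself (-0.84) were lower. *Prdm1* (205 and 175 compared with 239 and 296 TPM), *Irf4* (683 and 651 compared with 865 and 971 TPM), *Tnfrsf13b* and *Sdc1*, with log2FC of 0.28, 0.25, 0.01 and -0.25, did not pass, so that the sum follows *Mzb1* and *Igj*. The part of these differences in the result was not tested.

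Other genes of the pathways were examined as well. Of 9 other sterol and isoprenoid enzymes, 5 were lower and none was higher in Xbp1-deficient PBs. *Dhdds*, for a subunit of the enzyme that makes the precursor of dolichol, fell from 195 and 184 TPM to 58.8 and 59.0 TPM (log2FC -1.89). *Nus1*, for the other subunit of that enzyme, and *Lbr*, for a sterol reductase of the nuclear envelope, had log2FC of -1.09 and -1.12. Of 9 genes tested for SREBP processing and sterol sensing, 5 were lower and none was higher.

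Of 9 genes tested for sterol esterification, transport and the sterol-sensing LXR receptors, 3 were lower and 1 was higher. The higher gene was *Soat2*, for an acyltransferase that esterifies cholesterol, at 0.570 and 0.790 TPM in control PBs, 8.53 and 7.63 TPM in Xbp1-deficient PBs and 0.690 and 0.905 TPM in *Bhlha15* CreER/CreER PBs (log2FC 3.20, SE 0.31, adjusted p = 0.000125 between the first and second group). *Osbp*, for an oxysterol-binding protein, was lower (-1.11). Among 14 other fatty acid genes tested, 4 were lower and 1, *Me1*, was higher (0.51), with the largest decline at the acyl-CoA synthetase gene *Acsl3* (40.3 and 40.2 compared with 17.1 and 13.4 TPM, log2FC -1.61). Among 11 genes of fatty acid oxidation, 1 was lower and 2 were higher, with log2FC of -0.27 for *Etfdh*, 0.36 for *Slc25a20* and 0.43 for *Echs1*.

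Loss of Mist1 in the same culture system was examined with *Bhlha15* CreER/CreER PBs. None of the 33 genes was called, and 0.322% of the 12125 genes tested were called by limma (33 lower and 6 higher). By the rule of the study 0.0495% of all genes and none of the 33 were called. At an unadjusted p under 0.05, 4 of the 33 genes and 10.4% of all genes passed, namely *Dhcr7* and *Fads2* below and *Ebp* and *Tm7sf2* above the control. The log2FC ranged from -0.27 for *Dhcr7* to 0.36 for *Tm7sf2*, with a median of -0.03. None of the 33 genes was called under any alternative run, and none of the other pathway genes was called.

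*Insig1* was at 189 and 186 TPM in these PBs and 222 and 219 TPM in the control. The libraries were thus apart, but the difference did not pass the test (log2FC -0.19, SE 0.10, adjusted p = 0.578, 95% interval -0.42 to 0.05). The intervals of the other regulators were -0.38 to 0.05 for *Srebf2*, -0.29 to 0.08 for *Srebf1*, -0.36 to 0.03 for *Scap* and -0.21 to 0.14 for *Insig2*. A decline by 0.5 on the log2 scale lay outside all of these intervals. *Fads2* was at 72.8 and 71.5 TPM compared with 87.8 and 85.7 TPM and *Dhcr7* at 46.4 and 46.0 TPM compared with 57.6 and 57.1 TPM. The libraries did not overlap for these genes although neither passed (adjusted p = 0.377 and 0.332 of limma). After scaling, this was so for 15 of the 33 genes and for 4640 of all 12125 genes tested.

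Xbp1-deficient PBs were also set against *Bhlha15* CreER/CreER PBs, since both had little *Bhlha15* mRNA. Here 27 of the 33 genes were lower and none was higher, compared with 17.8% lower and 9.34% higher of all genes tested. The Xbp1-deficient libraries are those of the first comparison. The log2FC was -2.63 for *Insig1* (SE 0.10, adjusted p = 1.22e-06) and -1.72 for *Fdps*, which were again lower by the rule of the study (with 1.66% of all genes). They were followed by *Cyp51* (-1.44), *Srebf2* (-1.35), *Lss* (-1.30), *Idi1* (-1.25), *Sqle* (-1.06), *Hsd17b7* (-1.02), *Dhcr7* (-0.96), *Scd1* (-0.92) and *Srebf1* (-0.89). *Tm7sf2* and *Mvk*, for a late sterol reductase and mevalonate kinase, were lower here (-0.49 and -0.46). *Scap* (-0.17, and 0.080 with TPM as deposited), *Nsdhl*, *Acaca*, *Acly*, *Elovl1* and *Acss2* did not pass.

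With TPM as deposited, the median log2FC of this comparison was 0.26 over all genes, and 22 of the 33 genes were lower and 1 was higher (*Elovl1*, 0.20). Among all genes called, the share of lower genes was 65.6% with the median of ratios, 24.1% with TPM as deposited and 44.4% after quantile normalization. *Insig2* (-0.34) lost its call under both of these scalings and without the first Xbp1-deficient library (adjusted p up to 0.453).

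In splenic PCs, loss of Mist1 was examined by comparing *Cd23*-Cre *Bhlha15* fl/fl with control PCs. Of the 33 genes, 10 were lower and 3 were higher, compared with 16.2% lower and 13.3% higher of the 12028 genes tested. The median log2FC was 0.04 over the 33 genes and 0.01 over all genes. After scaling, the libraries of both groups did not overlap for 24 of the 33 genes and for 8445 of all 12028 genes tested. Of the regulators and carriers, 5 of 6 were lower. Of the sterol enzymes, 3 of 16 were lower and 1 was higher, and of the fatty acid enzymes, 2 of 11 were lower and 2 were higher.

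*Fads2* showed the largest difference. It was at 35 and 25.8 TPM in control PCs and 10.8 and 8.51 TPM in Mist1-deficient PCs. All 4 libraries lay below every PB library, and both groups were apart (log2FC -1.62, SE 0.19, adjusted p = 0.00393), although the control PC libraries differed more for *Fads2* than for any other of the 33 genes. It was the only one of the 33 genes past the rule of the study, which 0.723% of all genes passed as lower. *Fads1*, whose product acts after that of *Fads2* in the synthesis of polyunsaturated fatty acids, rose from 15 and 16.9 TPM to 22.1 and 21.6 TPM (log2FC 0.47). *Elovl5*, whose product elongates the intermediates, rose from 54.1 and 60.6 TPM to 80.4 and 76.8 TPM (0.47). *Fabp5*, for a fatty acid-binding protein that is not among the 33 genes, fell from 8.03 and 8.15 TPM to 2.41 and 2.64 TPM (-1.62).

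*Scap* fell from 96.2 and 81.4 TPM in control PCs to 43.7 and 43.9 TPM in Mist1-deficient PCs (log2FC -1.0, SE 0.11, adjusted p = 0.00291). The level in Mist1-deficient PCs still lay above that of all PB libraries (21.4 to 27.6 TPM). *Scap* shares exonic positions with a gene on the opposite strand. The strand setting of the counting is not given in the sources used here, so that reads of both genes could be mixed. *Dhcr7* fell from 54.0 and 49.0 TPM to 26.7 and 25.7 TPM (log2FC -0.95, SE 0.09, adjusted p = 0.00213). *Sc5d*, for the desaturase that acts immediately before Dhcr7, fell from 52.0 and 48.3 TPM to 32.7 and 31.4 TPM (log2FC -0.62, SE 0.08, adjusted p = 0.00466). The groups did not overlap for these genes. Together with *Fads2* and *Elovl5*, they were called whichever library was left out.

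The other regulators declined by less than 1.5-fold. *Insig1* was at 154 and 151 TPM compared with 116 and 102 TPM (log2FC -0.47, SE 0.08, adjusted p = 0.0101) and *Srebf2* at 176 and 172 TPM compared with 142 and 133 TPM (log2FC -0.32, SE 0.06, adjusted p = 0.0176). *Insig2* (log2FC -0.44, SE 0.07, adjusted p = 0.00945) and *Srebf1* (log2FC -0.30, SE 0.08, adjusted p = 0.0383) were lower as well. *Fdps* (-0.26) and *Scd2* (-0.25) were lower and the sterol dehydrogenase gene *Nsdhl* was higher (0.47) by the same test. With either Mist1-deficient library left out, 6 genes were called, since *Srebf1*, *Srebf2*, *Insig2*, *Fdps*, *Scd2* and *Fads1* were lost in both cases, *Nsdhl* without the first and *Insig1* without the second. *Fdps* was also lost after quantile normalization, *Srebf1* and *Fdps* without the first control library, and *Srebf1* and *Srebf2* with eBayes without trend (adjusted p up to 0.212 and 0.158 over all alternatives). The central sterol enzymes did not pass the test, for example *Cyp51* (43.3 and 47.4 compared with 49.3 and 43.0 TPM, 95% interval of the log2FC -0.16 to 0.25), *Lss* (-0.01 to 0.32) and *Sqle* (0.02 to 0.50, adjusted p = 0.0916 of limma).

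**Figure D4:**
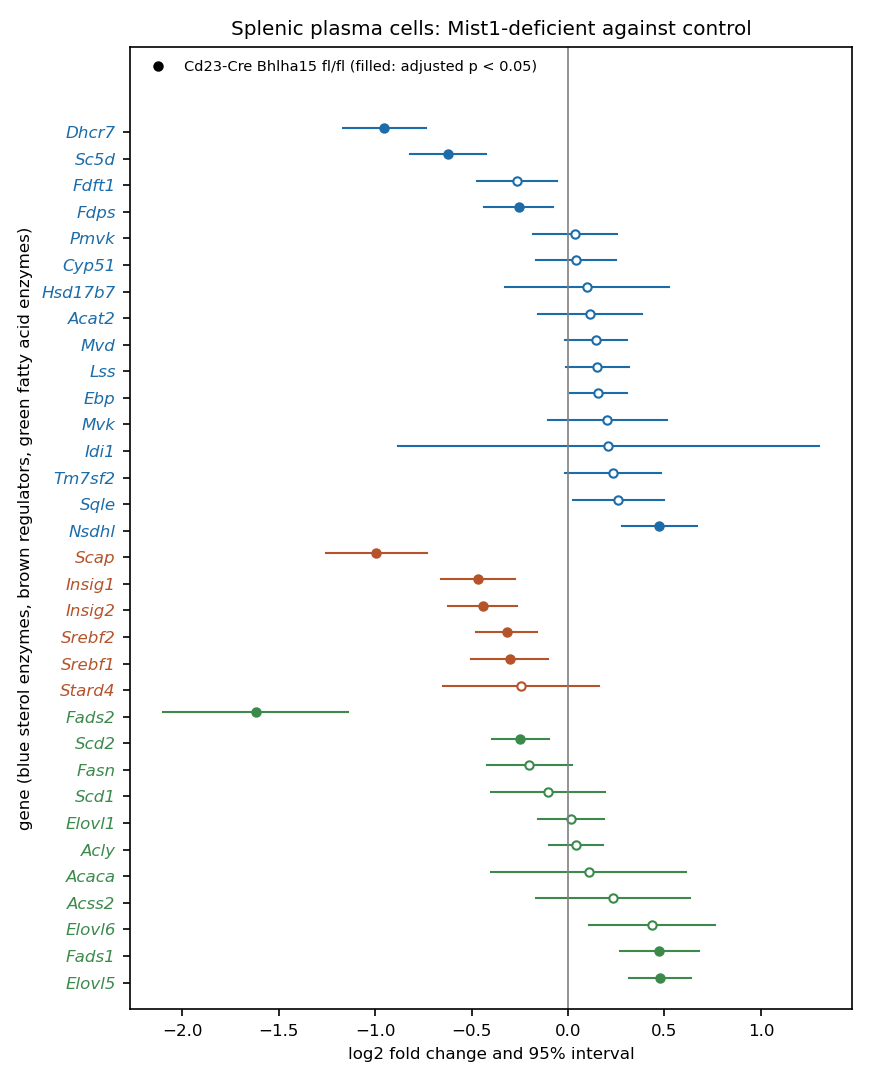
Log2 fold change (x axis, with the 95% interval as a line) of the 33 genes (y axis, grouped by arm) in Mist1-deficient against control PCs, with filled symbols at an adjusted p under 0.05. *Fads2*, *Scap* and *Dhcr7* lie farthest to the left, at -1.62, -1.0 and -0.95.

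Among the other genes of the pathways, 2 of 9 genes tested for SREBP processing and sterol sensing were lower and 4 were higher in Mist1-deficient PCs. *Mylip*, for a ubiquitin ligase induced by LXR, fell from 44.8 and 41.3 TPM to 22.2 and 24.7 TPM (log2FC -0.85). Of 9 other sterol and isoprenoid enzymes, 1 was lower (*Lbr*, -0.26) and 1 was higher. Of 10 genes of sterol esterification, transport and LXR 4 were lower and 3 were higher, of 12 other fatty acid genes 2 were lower and 2 were higher, and of 11 genes of fatty acid oxidation none was lower and 4 were higher. The neutrophil genes summed to 988 and 461 TPM in control and 845 and 560.0 TPM in Mist1-deficient PCs, the T cell genes to 72.7 and 74.8 compared with 82.0 and 105 TPM, the macrophage genes to 277 and 273 compared with 286 and 243 TPM and the fibroblast genes to 25.8 to 31.4 TPM. The 4 B cell genes summed to 873 and 1125 TPM in control and 621 and 692 TPM in Mist1-deficient PCs. The 3 erythroid genes found of 5 summed to 3.97 to 9.91 TPM, with *Hbb-b1* at 0. The part of these markers in the result was not tested.

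The effect of Mist1 loss in PCs was then set against that in PBs by a test of the difference itself, in a model of all 10 libraries. It was lower in PCs for 4 of the 33 genes, namely *Fads2* (difference of the log2FC -1.38, SE 0.22, adjusted p = 0.0115), *Scap* (-0.81, SE 0.14, adjusted p = 0.0151), *Dhcr7* (-0.67, SE 0.12, adjusted p = 0.0161) and *Sc5d* (-0.50, SE 0.11, adjusted p = 0.0374). It was higher in PCs for *Nsdhl* (0.47) and *Elovl5* (0.41). Of all 13230 genes tested, 4.17% were lower and 1.94% were higher, and the share of lower genes among those called was 68.2% with the median of ratios and 56.2% after quantile normalization. *Insig2* (-0.39, adjusted p = 0.0532), *Insig1* (-0.27, adjusted p = 0.301), *Srebf1* (-0.18, adjusted p = 0.379) and *Srebf2* (-0.14, adjusted p = 0.551) did not pass. *Fads2* was called whichever library was left out, and was the only one of the 33 genes called when either control PB library or either Mist1-deficient PC library was left out, or when eBayes was run without trend. *Elovl5* and *Nsdhl* were called only with all libraries or without the second control PC library, and *Sc5d* was also lost with TPM as deposited (3 of the 33 genes lower) and without the first *Bhlha15* CreER/CreER or the first control PC library. The *Bhlha15* allele, the control genotype, the cell source and the series of libraries differ between both settings and cannot be told apart.

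**Figure D5:**
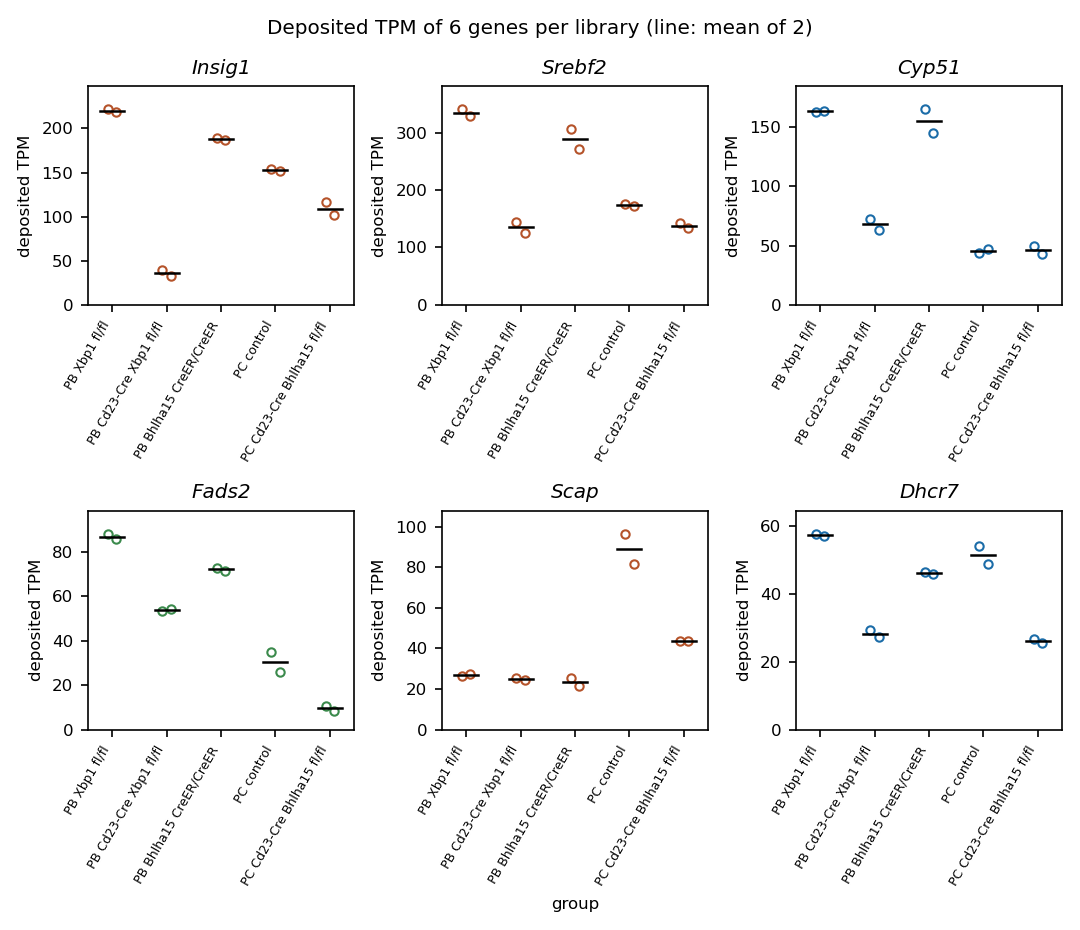
Deposited TPM (y axis) of *Insig1*, *Srebf2*, *Cyp51*, *Fads2*, *Scap* and *Dhcr7* in the 5 groups (x axis), with a symbol for each library and a line at the mean of 2 libraries. *Insig1*, *Srebf2* and *Cyp51* are lower in Xbp1-deficient than in control PBs, *Fads2* and *Dhcr7* are lower in Mist1-deficient than in control PCs, and *Scap* is highest in control PCs, at 96.2 and 81.4 TPM.

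Finally, control PCs were compared with control PBs. Of the 33 genes, 30 were lower and 1 was higher in the PCs, compared with 38.4% lower and 37.6% higher of all 13230 genes tested. The median log2FC was -1.0 over the 33 genes and 0.01 over all genes. After scaling, the libraries of both groups did not overlap for 32 of the 33 genes and for 11637 of all 13230 genes tested. The lower genes comprised 15 of 16 sterol enzymes, 5 of 6 regulators and carriers and 10 of 11 fatty acid enzymes. By the rule of the study, 6 of the 33 genes were lower and 1 was higher, compared with 6.19% lower and 7.77% higher of all genes. The higher gene was *Scap*, at 96.2 and 81.4 TPM in PCs and 26.6 and 27.6 TPM in PBs (log2FC 1.59, SE 0.10, adjusted p = 7.77e-07). As given above, reads of *Scap* could be mixed with those of a gene on the opposite strand. Cell source, stimulation, sort and library series differ between PCs and PBs and cannot be told apart.

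The largest declines were at *Hsd17b7* (3.47 and 4.09 TPM in PCs compared with 14.5 and 15.5 TPM in PBs, log2FC -2.08), *Stard4* (11.6 and 15.8 compared with 50 and 53.7 TPM, -2.04) and *Sqle* (33.7 and 40.7 compared with 138 and 138 TPM, -2.01). The PC libraries lay far below the PB libraries for all of them. They were followed by *Cyp51* (-1.96) and *Acat2* (-1.87), the gene of a thiolase at the start of the sterol pathway. Of the fatty acid genes, *Fads2* (-1.64), *Scd1* (-1.39), *Acaca* (-1.28) and *Scd2* (-1.23) showed the largest declines. *Idi1* (-1.34, SE 0.34), *Mvk* (-1.22) and *Fdps* (-1.22) complete the 12 lower genes with the largest differences.

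The log2FC of the regulators were -1.06 for *Srebf2* (SE 0.08, adjusted p = 3.26e-06), -0.64 for *Insig1* (SE 0.10, adjusted p = 0.00026), -0.35 for *Insig2* (SE 0.07, adjusted p = 0.00152) and -0.33 for *Srebf1* (SE 0.08, adjusted p = 0.00372). The late sterol genes *Dhcr7* (-0.27) and *Sc5d* (-0.39) were also lower, while the sterol isomerase gene *Ebp* (0.09) and *Acss2* (0.20) did not pass. *Ebp* was called as higher under the deposited scale (log2FC 0.20, adjusted p = 0.0215) and with quantile normalization (0.23, adjusted p = 0.0158). With TPM as deposited, the median log2FC over all genes was 0.12. On that scale 27 of the 33 genes were lower, since *Dhcr7*, *Nsdhl* and *Elovl1* were not called.

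Of 10 genes tested for sterol esterification, transport and LXR, 7 were higher and 3 were lower in control PCs. *Soat2* was at 14.9 and 13.0 TPM in control PCs compared with 0.570 and 0.790 TPM in control PBs (log2FC 4.08). The cholesterol exporter genes *Abcg1* and *Abca1* were at 18.2 and 15 compared with 1.02 and 1.67 TPM (3.46) and at 25.0 and 26.7 compared with 6.59 and 8.27 TPM (1.68). *Nr1h3*, for the receptor LXR alpha, was at 3.87 and 4.22 compared with 0.331 and 0.471 TPM (2.96), and the LXR target *Mylip* had a log2FC of 2.81. Of 14 other fatty acid genes 12 were lower and none was higher, with the largest difference at *Me1*, for an enzyme that supplies NADPH (0.230 and 0.511 compared with 5.57 and 6.10 TPM, -3.82).

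Markers of other cells differed between these groups too. The macrophage genes summed to 277 and 273 TPM in control PCs and 135 and 137 TPM in control PBs, where *Cd68* made most of the sum and *C1qa* and *C1qb* were at 0. *Mrc1* was at 38.0 and 35.1 TPM in control PCs compared with 0.279 and 0.316 TPM in control PBs. The fibroblast genes summed to 27.3 and 25.8 TPM in control PCs and 1199 and 1432 TPM in control PBs, and the neutrophil genes to 988 and 461 compared with 11.6 and 10.3 TPM. The part of these cells in the comparison was not tested.

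Mist1 binding in LPS-stimulated PBs was examined at the TSSs of these genes. The 29413 and 30247 peaks of the 2 experiments formed 23804 common regions, and 22 of the 33 genes (66.7%) had a common region within 1 kb of a TSS. This was the case for 35.8% of all 22232 protein-coding genes and for 63.2% of the 10859 protein-coding genes that passed the filter in PBs, a share near that of the 33 genes. Both peak lists used here are shorter than those the study describes, so that further regions may lie at any of these genes. *Fads2*, *Scap*, *Dhcr7* and *Sc5d*, the 4 genes more than 1.5-fold lower in Mist1-deficient PCs, all had such a region. The region at *Fads2* covered chr19:10174966-10177052 (mm9) and with it the whole promoter shown above, and 5 further regions lay over the gene. Regions at the TSS of *Scap* (chr9:110234960-110238038) and *Sc5d* (chr9:42071369-42072702) were also found, and *Dhcr7* had 2, one of them at chr7:151014805-151016801.

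Mist1-bound regions were also present at genes that did not pass the test in Mist1-deficient PCs. The promoters of *Cyp51* (chr5:4103838-4105322) and *Lss* (chr10:75993672-75994740) shown above overlapped a common region, as did those of *Insig1* (chr5:28396462-28399158) and *Srebf2* (chr15:81977165-81979665), which changed by less than 1.5-fold. Of the 3 genes that were higher in Mist1-deficient PCs, *Elovl5* had a region (chr9:77764657-77766085), whereas *Fads1* and *Nsdhl* lay 15614 bp and 309354 bp from the nearest one in the lists used here, and a region left out of them would not be seen. The peak lists give positions only, and binding was measured in other cells than expression.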

How the data were processed

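RNA-seq libraries and Mist1 peak lists were used as deposited. The authors trimmed reads with cutadapt, aligned them with STAR 2.4.2 to mm9, counted them with FeatureCounts 1.5 and deposited TPM values per gene, which leave out immunoglobulin and T cell receptor genes. The study prepared cDNA with a directional RNA kit, but the strand setting of the counting is not given in the sources used here. A suffix on some gene names, which may denote overlap, was removed and was present at 8 of the 33 genes (*Acss2*, *Elovl1*, *Fads1*, *Fdft1*, *Lss*, *Scd2*, *Srebf1* and *Tm7sf2*). All of these except *Fads1* share exonic positions with another annotated gene, as do *Acaca* and *Scap*, so that their reads could be mixed with those of the neighbour. The neighbour lies on the same strand at *Scd2* and *Tm7sf2* and on the opposite strand at the others. The peak positions were called by the authors with MACS.

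TPM were scaled by the median of ratios over the libraries of a model. Genes reaching 1 TPM in 2 or more libraries entered limma 3.58.1 in R 4.3.3 (lmFit, eBayes with trend) as log2(scaled TPM + 0.1), so that fold changes of low genes are understated. The 6 PB libraries, the 4 PC libraries or all 10 libraries formed a model, and two-sided p-values were Benjamini-Hochberg adjusted over all its genes. The procedure was also run on simulated data. The changes added there were spread evenly over both directions, so that this run cannot decide between the scalings. Peaks sharing at least 1 bp between experiments were joined with bedtools 2.31.1. The promoter table covered 26 of the 33 genes by symbol.

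The genes, the other lists and the tests were chosen with earlier results of these data known. Named with statistics are genes at an adjusted p under 0.05 and a fold above 1.5, up to 12 in each comparison, and *Srebf1*, *Srebf2*, *Scap*, *Insig1* and *Insig2*. Genes of other lists are named above a fold of 2, and further genes were named after their values were seen. The alternatives covered scaling, pseudocount (1 and 0.01), the filter, eBayes settings, the libraries in a model, each library left out and the rule of the study. Some genes of the other lists are counted but not reported here by name.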

Additional observations from a re-analysis of the deposited data

Results flagged for a closer look

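For 6 of the 33 genes, the effect of Mist1 loss differed between PCs and PBs by the test of the difference itself. Of all 13230 genes tested, the effect was lower in PCs for 4.17% and higher for 1.94%. Among the 33 genes, only *Fads2* was called whichever library was left out. The *Bhlha15* allele, the control genotype, the cell source and the series of libraries differ between both settings and cannot be told apart. The log2FC in PCs minus that in PBs was -1.38 for *Fads2*, -0.81 for *Scap*, -0.67 for *Dhcr7*, -0.50 for *Sc5d*, 0.41 for *Elovl5* and 0.47 for *Nsdhl*. Within PBs, the 95% intervals of the effect were -0.40 to -0.04 for *Fads2*, -0.36 to 0.03 for *Scap*, -0.47 to -0.07 for *Dhcr7*, -0.29 to 0.08 for *Sc5d*, -0.11 to 0.28 for *Elovl5* and -0.17 to 0.22 for *Nsdhl*. Groups of 2 libraries are too small to look for single libraries that stand apart.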

How the results depend on the processing

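Counts of lower and higher genes are those of limma unless stated. With TPM as deposited, all genes lower and higher numbered 1357 and 3423 (2186 and 1250 in the report) for Xbp1-deficient against control PBs, 74 and 12 (33 and 6) for *Bhlha15* CreER/CreER against control PBs and 1266 and 3977 (2155 and 1132) for Xbp1-deficient against *Bhlha15* CreER/CreER PBs, and 1 of the 33 genes was higher in the first and last of these. With quantile normalization, higher genes numbered 2511 and 2325 in these last comparisons, 63 genes were lower and 12 higher in *Bhlha15* CreER/CreER PBs, and 529 (257) were higher in the difference of the Mist1 effects. In PCs against PBs, 2 of the 33 genes were higher under both scalings. Without a filter, 10 genes were higher in *Bhlha15* CreER/CreER PBs and 0 of the 33 were higher in the difference of effects. With a filter of 5 TPM, 53 genes were lower in *Bhlha15* CreER/CreER PBs, and with robust eBayes 71 were lower and 10 higher. With eBayes without trend, 11 genes were lower in *Bhlha15* CreER/CreER PBs, 6 of the 33 were lower and 844 (1601) of all genes higher in Mist1-deficient PCs, and in the difference of effects 1 of the 33 was lower and 0 higher, with 227 (552) and 96 of all genes.

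By the rule of the study, 2 of the 33 genes were lower among 198 lower and 29 higher genes in Xbp1-deficient against control PBs, and 2 among 201 and 29 against *Bhlha15* CreER/CreER PBs. That rule called 4 lower and 2 higher genes in *Bhlha15* CreER/CreER PBs, 1 lower and 0 higher of the 33 among 87 and 15 in Mist1-deficient PCs, and 6 lower of the 33 among 819 and 1028 in PCs against PBs.

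Leaving out 1 library at a time gave 20 to 27 of the 33 genes lower in Xbp1-deficient against control PBs, with 1282 to 2509 lower and 540 to 1730 higher of all genes, both lowest without the first control library. In *Bhlha15* CreER/CreER PBs it gave 3 to 39 lower and 0 to 23 higher genes, lowest without the same library, and in Xbp1-deficient against *Bhlha15* CreER/CreER PBs 26 to 27 of the 33 lower, with 1594 to 2473 and 518 to 1456 of all genes, lowest without the first and the second Xbp1-deficient library. In Mist1-deficient PCs, 4 to 10 of the 33 were lower and 1 to 4 higher, with 816 to 2172 and 294 to 2085 of all genes, lowest without the second Mist1-deficient library except for the higher ones of the 33, which were fewest without the first. In PCs against PBs, 28 to 30 of the 33 were lower. In the difference of effects, 1 to 5 of the 33 were lower and 0 to 2 higher, with 119 to 634 and 32 to 320 of all genes, lowest for all genes without the first Mist1-deficient PC library. The cause of these shifts was not tested.

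Of 1026 alternatives to the 64 named values, 987 kept direction and side of the threshold, 34 lost the call and 3 gained it (*Insig2* in the difference of effects). The other 2 changed sign, both without passing the test: *Scap* in Xbp1-deficient against *Bhlha15* CreER/CreER PBs, with a log2FC of 0.080 with TPM as deposited (-0.17 in the report), and *Insig2* in *Bhlha15* CreER/CreER against control PBs, with 0.0060 without the second *Bhlha15* CreER/CreER library (-0.03 in the report, and -0.068 to 0.0060 over the libraries left out). No paired analysis was possible because the labels carry no replicate numbers. TPM hold no read counts, so that the precision of low genes such as *Idi1* and *Acaca* cannot be given from depth.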
